A study of Homo sapiens with 17 samples.

Results

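The libraries described here are the 5 of YB5 cells under 250 nM toyocamycin that the labels place at 24 h (replicate 2), 48 h (replicate 2) and 72 h (replicates 1, 2 and 3), out of 17 libraries of the series. They were chosen by their labels alone, and the 3 libraries of the last time were compared with the 2 of the middle times. The 5 libraries of cells under the vehicle DMSO at those times, with the same replicate numbers, served to subtract the effect of time in culture. YB5 is a human cell line made from SW48 colon cancer cells, and all groups share its single inserted GFP gene behind a silenced viral CMV promoter. PolyA RNA was sequenced from both ends, and the values are reads counted per gene. All 10 libraries are batch 1 in the labels. The label of the last time is 72 h, whereas the text of the paper gives a longer time. The labels speak of biological triplicates, but nothing in them says which libraries came from separate cultures at different times, so p-values measure the spread between these libraries. With 1 library per arm at 24 h and at 48 h, those times were joined into 1 middle group, whose spread then includes the change from 24 to 48 h.

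Toyocamycin is a natural adenosine analog, and the study is about its action on CDK9. CDK9 and a cyclin T form P-TEFb, the kinase that releases paused RNA polymerase II into productive elongation. The 7SK complex, with HEXIM1 as its inhibitory protein, stores P-TEFb in an inactive form. Messages with a short life, such as those of MYC, MCL1 and the immediate early genes, are known to respond early when elongation is blocked. A messenger RNA level measured days later reflects synthesis and decay together, and RNA-seq in bulk gives each gene's share of the library rather than its amount per cell. The question addressed here is which differences from DMSO seen at 24 and 48 h were still there at 72 h, which had shrunk, and which were larger or were called only then.

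Gene counts summed to 13483232 to 22121364 per library in the drug arm and to 18028273 to 20756242 in the DMSO arm. Levels are given as counts scaled to a common total (CPM, the usual unit of edgeR) of the library size after TMM scaling, which sets the typical gene to no change. Across genes, the 3 toyocamycin libraries of 72 h correlated with one another at r = 0.984 to 0.987, with the 48 h library at 0.931 to 0.935 and with the 24 h library at 0.807 to 0.81. The mitochondrially encoded share of counts was 3.49% and 3.29% at 24 and 48 h on toyocamycin, 1.46% to 1.85% at 72 h, and 0.917% to 1.49% on DMSO. The cell line was checked against markers of colon epithelium, of which 10 of 13 exceeded 1 CPM in some library. KRT20 had at most 1 count and CDX1 had 0 counts in every library. The summed colon markers were 1459 to 3943 CPM at the middle times and 522 to 544 CPM at 72 h on toyocamycin, and 1917 to 6347 CPM on DMSO. Not every member fell with the sum. On toyocamycin CDH17 had 5.32 and 3.86 CPM at the middle times and 9.81, 6.32 and 5.88 CPM at 72 h. LGALS4 had 0 and 2.78 CPM, then 2.31, 3.20 and 5.05 CPM. On DMSO CDH17 had 0.806 to 1.11 CPM and LGALS4 at most 0.0447 CPM. Fibroblast markers summed to at most 2.24 CPM at the middle times and 2.87 to 21.4 CPM at 72 h, and the highest value came from replicate 2, in which COL1A1, COL1A2 and COL3A1 reached 11.8, 5.43 and 2.05 CPM. Leukocyte markers summed to 8.07 to 27.1 CPM at the middle times, 25.5 to 29.0 CPM at 72 h and 0.191 to 0.683 CPM on DMSO. These came mainly from CD14, CSF1R and ITGAM, while CD3D was at 0 in every library. The part of other cells in any result was not tested, and a smaller number of cells of a type and less RNA per cell cannot be told apart in such samples.

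From the middle times to 72 h, 3619 of 13853 genes tested rose on toyocamycin and 3940 fell, which is 26.1% and 28.4% of them and 54.6% in all (edgeR quasi-likelihood test, Benjamini-Hochberg adjusted p under 0.1). On DMSO, 84 genes rose and 11 fell over the same interval, or 0.606% and 0.0794%, with 619 and 415 at an unadjusted p under 0.05. The counts on DMSO depended on the model, with 1127 and 616 when 24 and 48 h had a mean each, 754 and 435 with all 17 libraries, and 25 to 468 and 2 to 265 without 1 library at a time. The median absolute log2 difference over all genes was 0.84 on toyocamycin and 0.23 on DMSO. The difference between both arms' changes passed for 1898 genes upward (13.7%) and 3026 downward (21.8%). Calls upward made up 47.9% of those on toyocamycin and 38.5% of those in the difference between arms. When libraries were scaled on the mitochondrially encoded genes, all genes moved up together by about 1 log2 unit (the median became 1.21), 8416 genes rose and 975 fell on toyocamycin, and upward calls made up 89.6% and 84.9%. Every rise and fall given below is therefore relative to the typical gene of the library.

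Without the toyocamycin library of 48 h, 5584 genes rose on toyocamycin. The difference between arms was then called upward for 3945 genes, against 1097 without the DMSO library of 24 h and 1249 without replicate 2 of DMSO at 72 h. The counts that fell on toyocamycin and in the difference between arms moved by less than 1.5 times without any library. Without replicate 2 of toyocamycin at 72 h, the library with collagen reads, 2744 genes rose and 3404 fell.

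At the middle times 5254 genes were higher on toyocamycin than on DMSO and 4485 lower, which is 37.9% and 32.4% and together 70.3% of those tested. At 72 h these were 6123 and 5652 genes, or 44.2% and 40.8%, together 85%. The 9739 genes called at the middle times were divided by the change of the drug effect, which is the log2 ratio of toyocamycin to DMSO. For 1368 genes (14.0%) the effect moved back toward 0 or beyond it and is called returned, and for 1910 (19.6%) it grew in the same direction. For 1411 (14.5%) the change was not called and its 95% interval lay within 1 log2 unit of 0, which is called held, and for 5050 (51.9%) the interval was wider, so that the course could not be resolved. A further 1634 genes were not called at the middle times but had an effect at 72 h that had changed in the same direction, and are called late. Without 1 library at a time these counts ran from 958 to 2755 for returned, 1086 to 2713 for grew, 944 to 2324 for held and 898 to 2546 for late genes. Without the toyocamycin library of 48 h 2755 returned and 2713 grew, so the order of both was then turned. The middle libraries both choose the genes and enter the difference. When genes were chosen at 24 h and the change was measured from 48 h, with 1 library per arm at each time, 1879 of 9490 (19.8%) returned and 1327 (14.0%) grew, again in the other order. The plot of the drug effect at both stages shows how the groups lie around the line of no change.

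**Figure D1:**
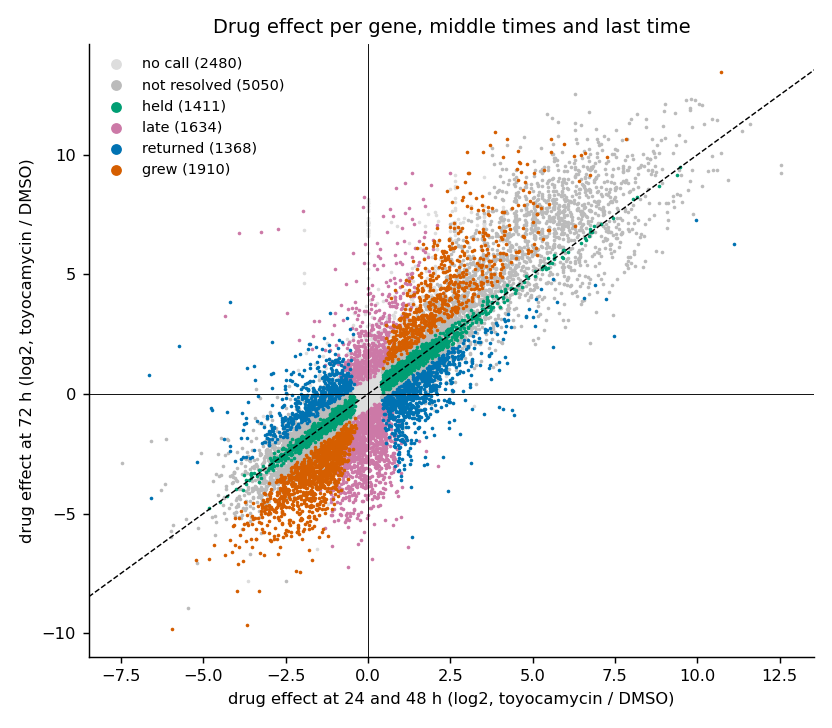
Drug effect of each of the 13853 genes tested, as the log2 ratio of toyocamycin to DMSO at 24 and 48 h together (horizontal) and at 72 h (vertical), coloured by class with the number of genes in brackets; on the dashed line the effect did not change. The 1910 genes that grew lie beyond the line away from 0, the 1368 that returned lie between the line and 0 or past it, and the 5050 not resolved lie on both sides of the line.

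The rule of the classes took 24 and 48 h together, and the courses through them are given as a description. Genes that returned from higher had a median drug effect of 1.76 at 24 h, then 1.17 at 48 h and 0.01 at 72 h, on the log2 scale, and of those that returned from lower -1.88, -1.23 and -0.09. For genes that grew higher the medians were 1.17, 2.50 and 3.71, and for those that grew lower -1.09, -2.17 and -3.25. The medians were -0.48, 0.46 and 1.74 for late higher genes and 0.40, -0.73 and -2.03 for late lower genes. The rule required that the middle effects of late genes were not called, which does not make each of them small. The value of 48 h lay between those of 24 and 72 h for 80.8% of the genes that returned, 91.3% of those that grew and 91.5% of the late ones. It did so for 29.9% of the held genes, 56.4% of those not resolved and 49.4% of those in no class. The rule used these same libraries, so a high share in the classes that changed is partly built in. In 374 of the 1368 returned genes the effect at 72 h was called on the other side of DMSO. In the classes that changed, between 91.0% and 95.8% of the genes were also called on toyocamycin itself in that direction, and in 4.63% to 11.7% the change on DMSO was the larger one.

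**Figure D2:**
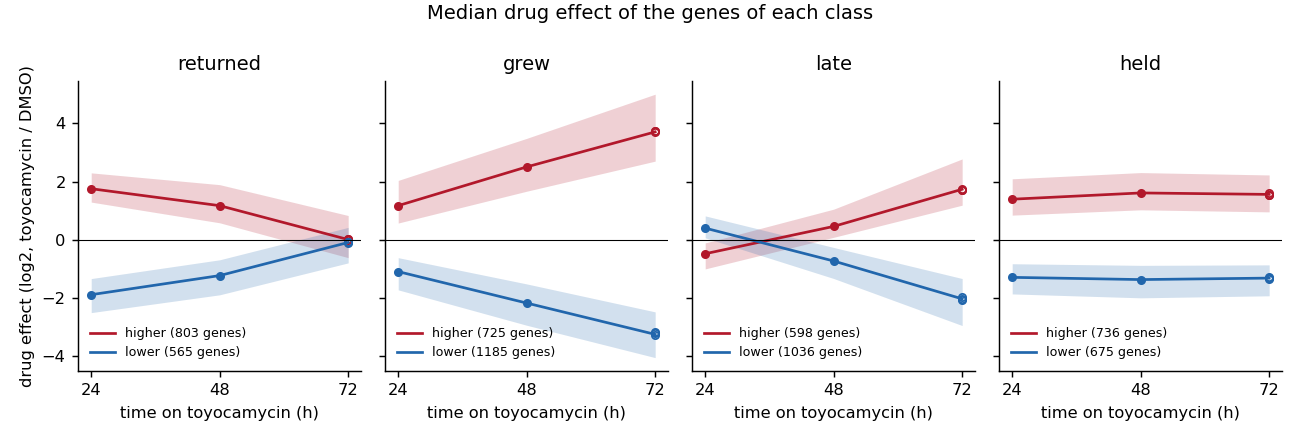
Median drug effect (log2 ratio of toyocamycin to DMSO, vertical) against time in h (horizontal) for the genes of 4 classes, with the number of genes; red stands for genes higher and blue for genes lower, by the direction at the middle times or, for late genes, at 72 h. Filled points are the libraries of 24 and 48 h, open points the 3 replicates of 72 h and bands the quartiles over genes, and the medians of held genes stay between 1.40 and 1.61 or between -1.36 and -1.29.

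Gene span, which the rule did not use, is given as a description. The median was 21.3 kb for genes that grew higher, 24.5 kb for late higher and 27.4 kb for returned higher, against 31.7 kb over all genes, 31.7 kb for held higher and 31.5 kb for late lower. It was 38.9 kb for returned lower, 47.1 kb for held lower and 47.9 kb for grew lower. The median level on DMSO per kb of exon, from libraries that also form the drug effect and so the rule, was 3.18 CPM over all genes. It was 1.498 CPM for grew higher, 1.39 for late higher, 3.82 for returned lower, 5.61 for held higher, 7.85 for held lower, 8.38 for grew lower, 8.71 for returned higher and 9.45 for late lower. In the 4 libraries of 2 h (2 per arm), which share no sample with these contrasts, 738 of 11802 genes tested in both fits (6.25%) were lower on toyocamycin and 17 (0.144%) higher. By the labels each arm at 2 h holds libraries of different batches, and the fit of 2 h had no batch term. Of the genes held higher from 24 h on, 13.2% were lower at 2 h, and of those that grew higher 11.6%. The shares were 3.38% for grew lower and 2.42% for late lower.

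The genes named for each class are those with the largest change of the drug effect among well expressed ones (average log2 CPM of at least 4), so their values describe the class and are not tested again. The 3 toyocamycin libraries of 72 h also had to lie beyond both middle ones, as they did upward for 35.1% of all genes and downward for 32%. Of the 803 genes that returned from higher, the leading 4 were PROM2, TSPAN1, KRT81 and KRT5. PROM2, a prominin of membrane protrusions (chr2:95274449-95291308), stood at 32.5 CPM at 24 h, 7.88 at 48 h, and 0.555, 0.712 and 0.662 at 72 h on toyocamycin. All libraries of 72 h lay below both earlier ones. On DMSO it had 11.4 and 4.48 CPM at the middle times and 41.7, 46.9 and 35.7 CPM at 72 h, with a log2 difference of 2.38 ± 0.54 (adjusted p = 0.12), given as estimate ± SE over 3 against 2 libraries here and below. TSPAN1, a tetraspanin of the cell surface, had 43.9 and 12.7 CPM at the middle times and 3.05, 2.49 and 2.98 CPM at 72 h on toyocamycin and 5.78 and 4.65 CPM at the middle times and 41.5, 53.8 and 47.1 CPM at 72 h on DMSO, so the arms exchanged their order. The keratin gene KRT5, a marker of basal epithelium, had 21.7 and 6.72 CPM at the middle times and 3.52, 2.94 and 4.39 CPM at 72 h on toyocamycin and 6.66 and 4.78 CPM at the middle times and 50.5, 60.1 and 49.1 CPM at 72 h on DMSO. KRT81, a hair keratin, fell by only 0.81 on the log2 scale on toyocamycin, from 41.9 and 35.8 CPM to 18.3, 23.9 and 24.2 CPM, while on DMSO it went from 2.102 and 6.83 CPM to 170.5, 192 and 131 CPM. KRT81 lies opposite KRT86, a close relative, and their reads may not be told apart. For TSPAN1, KRT5 and KRT81 the rise on DMSO passed the test itself, with log2 differences of 3.18 ± 0.45 (adjusted p = 0.012), 3.21 ± 0.44 (adjusted p = 0.01) and 5.21 ± 0.47 (adjusted p = 0.00074). On DMSO 36 of the 803 genes were called, against 95 of all 13853 genes tested (0.686%). The rule of the class subtracts the change on DMSO and so favours such genes. TSPAN1, KRT81 and KRT5 had log2 differences of -2.17, -0.70 and -0.90 on toyocamycin without its 24 h library, and the call of KRT81 was lost. KRT81 lost its call without any 1 of 4 libraries, with values from -0.87 to -0.68.

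Of the 565 genes that returned from lower, the leading 4 were DACT1, CTNNAL1, TMCC2 and CAVIN1. DACT1, an inhibitor of Wnt signalling that binds Dishevelled, had 8.19 CPM at 24 h, 6.02 at 48 h, and 47.5, 58.3 and 55.03 at 72 h, against 5.15 to 13.7 CPM over the 5 DMSO libraries. The libraries of 72 h lay above all DMSO libraries and above both earlier ones. CTNNAL1, an alpha-catenin relative that overlaps ABITRAM on the opposite strand, had 13.5 and 8.96 CPM at the middle times and 58.9, 109 and 112 CPM at 72 h, against 29.3 and 50.5 CPM at the middle times and 22.4, 23.03 and 29.9 CPM at 72 h on DMSO. TMCC2, a coiled-coil membrane protein, had 5.32 and 10.8 CPM at the middle times and 26.7, 46.5 and 45.6 CPM at 72 h against 18.1 and 24.2 CPM at the middle times and 12.4, 11.98 and 8.28 CPM at 72 h on DMSO. CAVIN1, which coats caveolae (chr17:42402449-42423256), had 82.9 CPM at 24 h, 105 at 48 h, and 464, 517 and 536 at 72 h. On DMSO it had 165 and 108 CPM at the middle times and 81.5, 82.8 and 66.3 CPM at 72 h, and the log2 drug effect went from -0.54 to 2.72. All of these were among the 122 of the 565 genes whose effect at 72 h was called on the other side of DMSO.

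Of the 725 genes that grew higher, the leading 4 were CLDN6, DUSP10, TMEM88 and HGFAC, which were near silence on DMSO, so no fold over DMSO is given. CLDN6, a claudin of tight junctions (chr16:3014712-3020071), had 2.81 CPM at 24 h, 46.03 at 48 h, and 247, 298 and 298 at 72 h on toyocamycin and 0.0841 to 1.54 CPM on DMSO. It overlaps TNFRSF12A on the opposite strand, and since the sources do not state the strand setting of the counting, reads of both genes may be counted together. DUSP10, a phosphatase of p38 and JNK kinases, had 7.19 and 16.8 CPM at the middle times and 172, 182 and 150.2 CPM at 72 h and 0.128 to 0.806 CPM on DMSO. TMEM88, a membrane protein that binds Dishevelled, had 3.503 and 22.8 CPM at the middle times and 48.3, 62.6 and 54.4 CPM at 72 h, and HGFAC, the protease that activates hepatocyte growth factor, 1.75 and 9.65 CPM at the middle times and 48.9, 77.8 and 71.8 CPM at 72 h. The change of the drug effect was 3.19 for DUSP10 and 2.75 for HGFAC without the DMSO library of 24 h, and that of HGFAC was then not called. In all of them the 48 h library exceeded that of 24 h and the 3 of 72 h exceeded both. The drug arm alone changed by log2 3.53 ± 0.87, 3.82 ± 0.47, 2.08 ± 0.59 and 3.55 ± 0.68 in that order. TMEM88 had a log2 difference of 1.26 on toyocamycin without its 24 h library, and stayed called. CLDN6 and TMEM88 had log2 differences of 6.62 and 3.96 on toyocamycin without its 48 h library, and stayed called.

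Of the 1185 genes that grew lower, the leading 4 were UCP2, KRT19, IDH2 and KCTD17. They approached the floor of detection, which is 0.188 to 0.278 CPM for 3 counts in a toyocamycin library. UCP2, a carrier of the inner mitochondrial membrane, had 12.1 CPM at 24 h, 1.08 at 48 h, and 0.463, 0.445 and 0.165 at 72 h, against 25.5 to 68.3 CPM on DMSO. IDH2, the mitochondrial NADP-dependent isocitrate dehydrogenase, had 55.9 CPM at 24 h, 4.02 at 48 h, and 1.11, 2.05 and 1.24 at 72 h, while DMSO libraries held 93.9 to 141 CPM. KCTD17, an adaptor of a cullin ubiquitin ligase, had 31.9 and 4.09 CPM at the middle times and 0.833, 0.801 and 0.579 CPM at 72 h against 31.3 to 49.6 CPM on DMSO. For these 3 genes most of the fall had taken place by 48 h. KRT19, a keratin of simple epithelia, had 25.3 and 6.797 CPM at the middle times and 2.78, 4.27 and 2.57 CPM at 72 h, whereas on DMSO it rose, with 37.4 and 36.8 CPM at the middle times and 195, 227 and 161 CPM at 72 h. UCP2, KRT19, IDH2 and KCTD17 had log2 differences of -1.61, -1.09, -1.46 and -2.48 on toyocamycin without its 24 h library, and stayed called.

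Of the 598 late higher genes, the leading 4 were FZD8, GAS1, DCLK1 and HMOX1. FZD8, a receptor for Wnt proteins (chr10:35638247-35642296), had 2.06 CPM at 24 h, 4.33 at 48 h, and 54.5, 85.4 and 71.2 at 72 h, against 0.496 to 2.602 CPM on DMSO. GAS1, a membrane protein first described in growth arrest, had 18.7 CPM at 24 h, 24.5 at 48 h, and 146, 241 and 215 at 72 h and 8.62 to 24.96 CPM on DMSO. HMOX1, heme oxygenase, had 2.69 CPM at 24 h, 14.1 at 48 h, and 117, 116 and 106 at 72 h and 2.901 to 5.57 CPM on DMSO. In these 3 genes the 72 h libraries stood well above every other library. DCLK1, a kinase that binds microtubules, had 24.96 and 26.6 CPM at the middle times and 112, 117 and 98.6 CPM at 72 h on toyocamycin, and the DMSO libraries of 24 and 48 h stood apart, with 1.26 and 21.6 CPM. Without the DMSO library of 48 h the change of the drug effect of DCLK1 was 0.60 and was not called.

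Of the 1036 late lower genes, the leading 4 were VIPR1, KRT14, TMPRSS4 and KLK7. KLK7, a secreted protease of epithelia (chr19:50976468-50984099), had 581 CPM at 24 h, 90.3 at 48 h, and 8.05, 11.4 and 11.3 at 72 h on toyocamycin and 251 to 856 CPM on DMSO. TMPRSS4, a membrane-bound serine protease, had 47.7 and 4.56 CPM at the middle times and 0.833, 0.8899 and 1.32 CPM at 72 h against 12.03 to 42.4 CPM on DMSO. VIPR1, the receptor of vasoactive intestinal peptide, had 12.1 and 2.09 CPM at the middle times and 0.833, 0.267 and 0.414 CPM at 72 h on toyocamycin and rose on DMSO, with 11.8 and 9.81 CPM at the middle times and 74.7, 79.7 and 75.1 CPM at 72 h. KRT14, the partner of KRT5 in basal epithelium, had 11.4 and 6.797 CPM at the middle times and 2.31, 1.69 and 1.41 CPM at 72 h on toyocamycin and 3.19 and 7.59 CPM at the middle times and 70.5, 93.6 and 77.9 CPM at 72 h on DMSO. In both the direction on toyocamycin was opposite to that on DMSO. VIPR1, TMPRSS4 and KLK7 had log2 differences of -2.06, -2.16 and -3.15 on toyocamycin without its 24 h library, and stayed called.

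Held genes had an effect of much the same size at both stages. NR4A2, an orphan nuclear receptor of the immediate early type, had 847 and 1058 CPM at the middle times and 602, 661 and 556 CPM at 72 h, against 3.07 to 5.76 CPM on DMSO, and log2 drug effects of 7.45 ± 0.29 and 7.36 ± 0.24. SLC16A6, of the monocarboxylate transporter family, had 61.8 and 73.8 CPM at the middle times and 109.8, 96.7 and 92.01 CPM at 72 h, with drug effects of 5.30 ± 0.26 and 5.34 ± 0.21. HECTD3, a ubiquitin ligase, had 1.001 and 1.47 CPM at the middle times and 1.11, 0.8899 and 1.16 CPM at 72 h against 25.1 to 35.7 CPM on DMSO. NFKB2, which encodes the p100 precursor of NF-kappaB, had 2.69 and 2.703 CPM at the middle times and 4.44, 4.005 and 6.62 CPM at 72 h against 49.4 to 122 CPM on DMSO. From the middle times to 72 h the log2 difference of NFKB2 was 0.90 ± 0.29 (adjusted p = 0.026) on toyocamycin and 0.91 ± 0.24 (adjusted p = 0.22) on DMSO.

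Gene lists by function are given by the number of tested members that rose or fell on toyocamycin from the middle times to 72 h, to be read against 26.1% and 28.4% of all genes, and by the median of the list relative to the median of all genes (0.08), on the log2 scale. That relative median kept its sign under all 4 scalings for each of the 36 lists. The absolute medians did not: 16 lists had a median below 0, and 13 of these turned above 0 when libraries were scaled on the mitochondrially encoded genes. Without the toyocamycin library of 24 h, with 2528 rises and 3018 falls over all genes, the relative median kept its sign in 34 of the 36 lists, and without that of 48 h in 31. Counts of 5 or more in a list that this library of 24 h moved by more than 1.5 times are given beside the list.

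**Figure D3:**
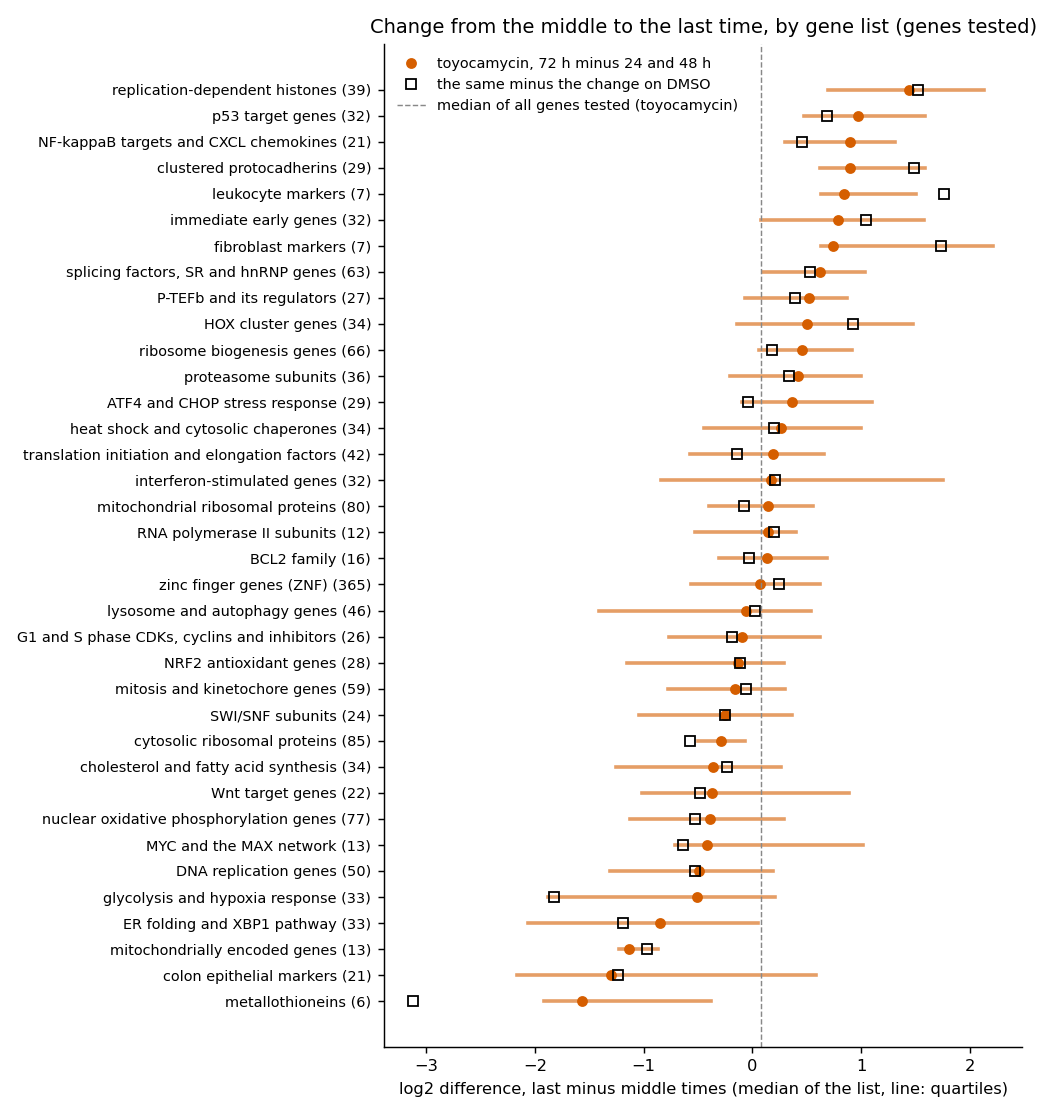
Log2 difference between 72 h and the middle times (horizontal) for 36 gene lists with the number of genes tested (vertical): orange points and lines are the median and quartiles on toyocamycin, open squares the median after subtracting DMSO, and the dashed line the median of all genes (0.08). Replication-dependent histones (1.44) and p53 targets (0.97) lie highest among lists of over 30 genes and colon markers, mitochondrially encoded genes and ER folding genes (-1.30, -1.13 and -0.85) among the lowest; with scaling on the mitochondrially encoded genes 13 of the 16 medians below 0 turn above it.

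Of the 27 genes of P-TEFb and its regulators, 11 rose and 3 fell (relative median 0.44). CDK9, the kinase itself (chr9:127785679-127790792), had 31.1 CPM at 24 h, 23.7 at 48 h, and 24.2, 26.3 and 23.00 at 72 h on toyocamycin and 54.7 to 70.9 CPM on DMSO. No library of toyocamycin reached the DMSO range, and the log2 drug effect was -1.20 ± 0.21 at the middle times and -1.36 ± 0.18 at 72 h, which counts as held. CCNT1, its cyclin partner, was held in the other direction, with 198 and 343 CPM at the middle times and 369, 315 and 318 CPM at 72 h against 41.00 to 53.4 CPM on DMSO. CCNT2, the alternative partner, had 139 and 263 CPM at the middle times and 257, 208 and 204 CPM at 72 h against 14.8 to 22.6 CPM on DMSO. HEXIM1, the inhibitor in the 7SK complex, was below DMSO at the middle times and came back, with 37.6 CPM at 24 h, 42.2 at 48 h, and 89.6, 76.9 and 78.8 at 72 h. On DMSO it had 102 and 82.1 CPM at the middle times and 115, 100.2 and 87.3 CPM at 72 h, so the ranges of both arms overlapped at 72 h. The change of the drug effect was 0.90 ± 0.27 (adjusted p = 0.034), and the effect left at 72 h was -0.30 ± 0.17 (adjusted p = 0.12). Without the DMSO library of 24 h the change of HEXIM1 was 0.66 and was not called. BRD2, a bromodomain protein, had 885 and 1917 CPM at the middle times and 2663, 2668 and 2754 CPM at 72 h and a log2 difference of 0.94 ± 0.28 (adjusted p = 0.018). It overlaps HLA-DMA on the opposite strand. BRD2 had a log2 difference of 0.48 on toyocamycin without its 24 h library, and stayed called. BRD2 had a log2 difference of 1.59 on toyocamycin without its 48 h library, and stayed called.

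RNA polymerase II subunits showed 3 rises and 3 falls among 12 genes (relative median 0.06). POLR2A, the catalytic subunit, had 48.3 and 55.2 CPM at the middle times and 70.98, 74.9 and 88.7 CPM at 72 h against 334 to 423 CPM on DMSO, and rose by 0.59 ± 0.18 (log2, adjusted p = 0.022) while its drug effect was held near -2.72 and -2.37. POLR2F and POLR2E, subunits shared with other polymerases, had log2 differences of 0.12 ± 0.18 (adjusted p = 0.61) and 0.17 ± 0.26 (adjusted p = 0.61). Of 24 genes of the SWI/SNF chromatin remodelling complexes, 6 rose and 10 fell (relative median -0.33). Without the 24 h library 2 rose and 9 fell (relative median -0.31). SMARCA4, an ATPase of the complex, had 67.2 CPM at 24 h, 47.2 at 48 h, and 31.8, 37.6 and 38.4 at 72 h, against 313 to 506 CPM on DMSO. Its log2 difference of -0.67 ± 0.22 (adjusted p = 0.028) added to a drug effect of -2.65 that was already there, and its sign reversed under scaling on the mitochondrially encoded genes. SMARCD2, an accessory subunit, fell from a level above DMSO at 24 h, with 344 CPM at 24 h, 78.9 at 48 h, and 33.2, 28.5 and 29.4 at 72 h and 192 to 285 CPM on DMSO. DPF2, another subunit, rose by 0.45 ± 0.18 (log2, adjusted p = 0.066). SMARCA4, SMARCD2 and DPF2 had log2 differences of -0.40, -1.39 and 0.24 on toyocamycin without its 24 h library, and the calls of SMARCA4 and DPF2 were lost. DPF2 lost its call without any 1 of 9 libraries, with values from 0.24 to 0.49.

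Immediate early genes, which are transcribed within minutes of a stimulus, had a high summed level at the middle times, after which 16 of 32 rose and 5 fell (relative median 0.71). Their summed level was 53799.5 CPM at 24 h, 60867 at 48 h, and 95985, 119778 and 107373 at 72 h on toyocamycin and 3909 to 7097 CPM on DMSO. CCN1, a secreted matrix protein, had 10339.7 CPM at 24 h, 11716 at 48 h, and 21619.9, 23085 and 21651 at 72 h, against 116 to 192 CPM on DMSO. NR4A1, an orphan nuclear receptor, had 4578 CPM at 24 h, 10302 at 48 h, and 20223, 28315 and 24724 at 72 h, against 91.9 to 227 CPM on DMSO. All libraries of 72 h lay above both earlier ones in either gene. The changes were 1.004 ± 0.21 (adjusted p = 0.0038) and 1.71 ± 0.33 (adjusted p = 0.0022). IER3 had 6819.9 and 6635 CPM at the middle times and 12414, 16401 and 14355 CPM at 72 h, a log2 difference of 1.10 ± 0.26 (adjusted p = 0.0067). MYC, the growth-promoting transcription factor, was in the held class, with 10672 CPM at 24 h, 6261 at 48 h, and 7782, 8849 and 8175 at 72 h on toyocamycin and 267 to 370.1 CPM on DMSO. Its drug effect was 4.73 ± 0.31 at the middle times and 4.68 ± 0.25 at 72 h. Within the 13 genes of the MYC and MAX network 4 rose and 6 fell (relative median -0.50). MNT, a repressor that competes with MYC for MAX, had 149 and 450.1 CPM at the middle times and 581, 666 and 574 CPM at 72 h, a log2 difference of 1.02 ± 0.38 (adjusted p = 0.047). MLXIP, a relative that senses glucose, fell by 0.71 ± 0.22 (log2, adjusted p = 0.024), a sign that reversed under scaling on the mitochondrially encoded genes. MNT had a log2 difference of 0.42 on toyocamycin without its 24 h library, and the call was lost. MNT and MLXIP had log2 differences of 2.01 and -0.33 on toyocamycin without its 48 h library, and the call of MLXIP was lost. MNT lost its call without any 1 of 2 libraries, with values from 0.42 to 0.95.

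**Figure D4:**
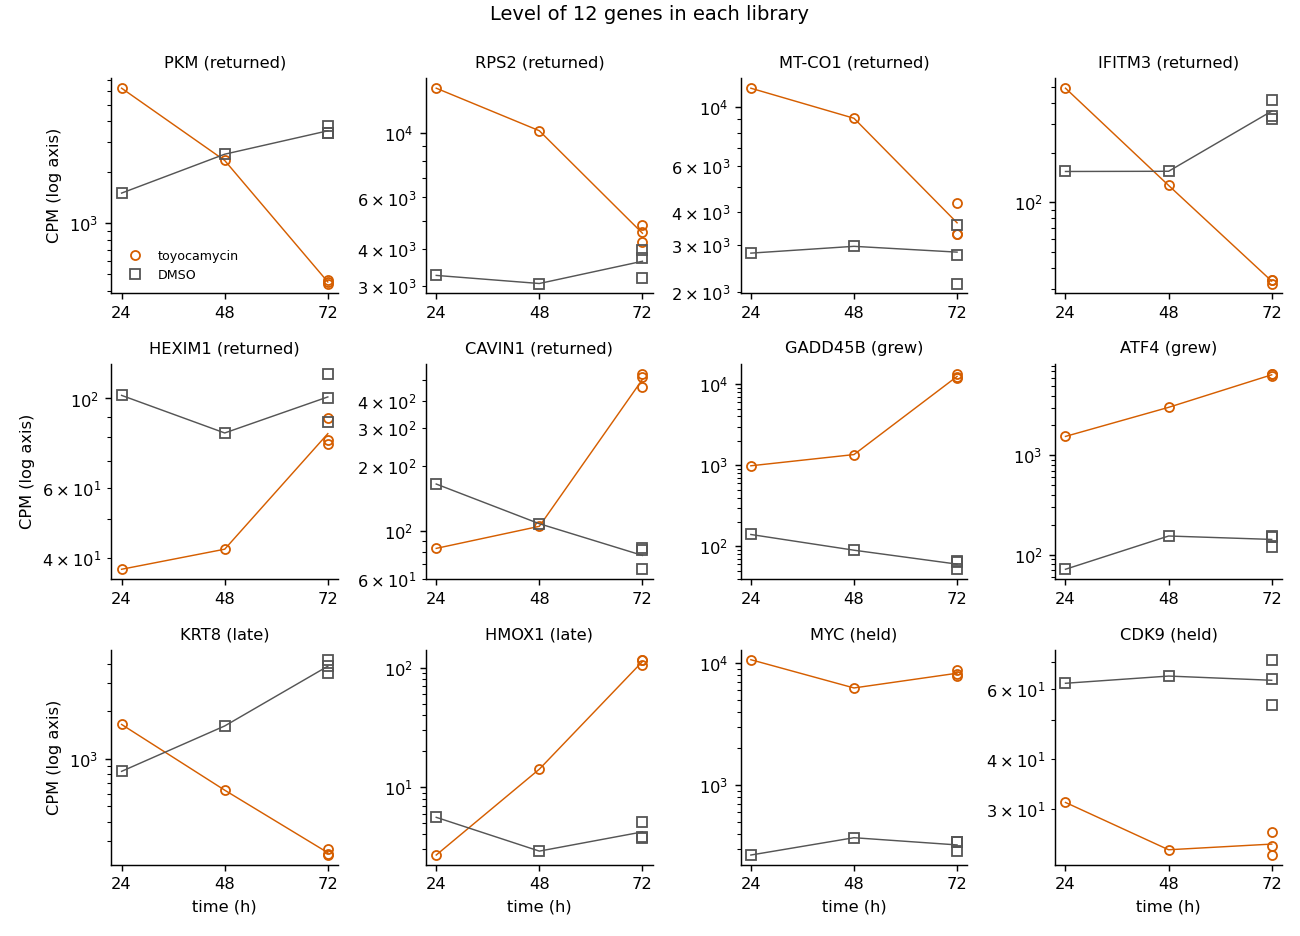
Level in CPM (vertical, log axis) of 12 genes in each library against time in h (horizontal), on toyocamycin (orange circles) and DMSO (grey squares); lines join the libraries of 24 and 48 h and the mean of the 3 of 72 h. PKM, IFITM3 and KRT8 on toyocamycin cross below DMSO, CAVIN1 crosses above it, HEXIM1, RPS2 and MT-CO1 come back to near the DMSO range, ATF4, GADD45B and HMOX1 go on rising, and MYC and CDK9 keep their distance from DMSO.

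Targets of p53 rose in 20 of 32 cases and fell in 1 (relative median 0.90). GADD45B, a stress sensor, had 986 CPM at 24 h, 1356 at 48 h, and 11864, 13393 and 12192 at 72 h, while DMSO libraries held 52.1 to 139.9 CPM. GADD45A, of the same family, had 967 CPM at 24 h, 1452 at 48 h, and 4095, 4947 and 4566 at 72 h, with 40.3 and 80.4 CPM at the middle times and 137, 159 and 132 CPM at 72 h on DMSO. The changes on toyocamycin were 3.41 ± 0.27 (adjusted p = 9e-05) and 1.91 ± 0.30 (adjusted p = 0.00077). On DMSO the log2 difference of GADD45A was 1.24 ± 0.29 (adjusted p = 0.14). CDKN1A, the cell cycle inhibitor p21, had 2569 and 3926 CPM at the middle times and 4048, 4389 and 3806 CPM at 72 h, and its log2 difference of 0.33 ± 0.22 (adjusted p = 0.24) did not pass. In the BCL2 family 5 of 16 genes rose and 3 fell (relative median 0.06). Without the 24 h library 3 rose and 4 fell (relative median 0.07). PMAIP1, the proapoptotic NOXA, had 332 and 480.4 CPM at the middle times and 1154, 1055 and 941 CPM at 72 h, a log2 difference of 1.37 ± 0.23 (adjusted p = 0.0012). BBC3, the proapoptotic PUMA, had a log2 difference of 0.74 ± 0.38 (adjusted p = 0.13), with 359 and 720.3 CPM at the middle times and 700.0, 983 and 1023 CPM at 72 h. MCL1, the prosurvival member that is known for its short life, had 348 and 454 CPM at the middle times and 546, 561 and 587 CPM at 72 h against 138 to 193 CPM on DMSO, and its drug effect grew from 1.16 to 1.96, a log2 difference of 0.80 ± 0.26 (adjusted p = 0.045). The change of its drug effect was 0.63 without the DMSO library of 48 h and 0.70 without replicate 2 of DMSO at 72 h, neither of which was called. MCL1 overlaps ADAMTSL4 on the opposite strand.

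Among NF-kappaB targets 11 of 21 rose and 3 fell (relative median 0.82). There were 6 rises and 2 falls without the 24 h library (relative median 0.52). TNFAIP3, the feedback inhibitor A20, had 40.3 CPM at 24 h, 55.1 at 48 h, and 316, 324 and 299.8 at 72 h, against 4.84 to 6.49 CPM on DMSO, a log2 difference of 2.71 ± 0.21 (adjusted p = 9e-05). NFKBIA, the inhibitor IkappaB-alpha, had 71.7 and 55.2 CPM at the middle times and 157, 148 and 152 CPM at 72 h, a log2 difference of 1.26 ± 0.20 (adjusted p = 0.00077). LIF, a cytokine, had a log2 difference of 1.32 ± 0.47 (adjusted p = 0.04) on toyocamycin and of 1.51 ± 0.48 (adjusted p = 0.34) on DMSO. Interferon-stimulated genes moved both ways, with 13 of 32 up and 7 down (relative median 0.09). Without the 24 h library 10 rose and 5 fell (relative median 0.52). IFITM3, which blocks virus entry, had 492 CPM at 24 h, 127 at 48 h, and 33.9, 33.8 and 32.2 at 72 h, and 154 and 154 CPM at the middle times and 336, 415 and 321 CPM at 72 h on DMSO. Its level at 72 h was below every other library, and it fell by 3.22 ± 0.42 (log2, adjusted p = 0.00033). OAS3, a sensor of double-stranded RNA, had 46.2 and 12.4 CPM at the middle times and 5.37, 4.89 and 7.12 CPM at 72 h against 111 to 134 CPM on DMSO. LIF, IFITM3 and OAS3 had log2 differences of 1.004, -1.94 and -1.10 on toyocamycin without its 24 h library, and the call of LIF was lost.

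In the response through ATF4 and CHOP, 10 of 29 genes rose and 4 fell (relative median 0.28). ATF4 itself, the transcription factor of the integrated stress response, had 1550.3 CPM at 24 h, 3042 at 48 h, and 6579, 6599 and 6237 at 72 h on toyocamycin and 71.2 to 154 CPM on DMSO. Each later stage was higher, and the change was 1.49 ± 0.35 (adjusted p = 0.0058). SLC3A2, the heavy chain of amino acid transporters, had 620.1 and 743 CPM at the middle times and 1047, 1097 and 1155 CPM at 72 h, a log2 difference of 0.69 ± 0.19 (adjusted p = 0.013). The growth of ATF4's drug effect (1.16) lost its call without any 1 of 8 of the 10 libraries (0.46 to 1.19). SLC7A5, the partner of SLC3A2, had a log2 difference of -0.29 ± 0.29 (adjusted p = 0.43).

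The folding machinery of the endoplasmic reticulum (ER) and the XBP1 pathway went the other way: 20 of 33 genes fell and 3 rose (relative median -0.93), and after subtracting DMSO 23 fell and 2 rose, against 21.8% and 13.7% of all genes. Without the 24 h library 14 fell and 2 rose (relative median -0.35), and after subtracting DMSO 15 fell and 1 rose. The summed level on toyocamycin was 10891 CPM at 24 h, 5287 at 48 h, and 3251, 3065 and 3098 at 72 h, so that it began above DMSO (6339.8 to 9471 CPM) and ended below it. Genes of this pathway are known to carry the ER stress response element, a CCAAT box and a CCACG box separated by 9 bases, to which ATF6 and XBP1 bind. In RefSeq promoters (GRCh38.p14, 250 bases before to 50 after the start, both strands), CCAAT followed by any 9 bases and CCACG was found in 7 of the 31 listed genes with a promoter (22.6%) and in 25 of 27305 genes overall (0.0916%). A match describes these letters and is not a binding site by itself. These windows show it for CALR and PDIA6, which fell, and for HSPA5 and XBP1, which did not pass on toyocamycin alone, with the element in capitals on the strand of the gene (for CALR as the reverse complement).
CALR, chr19:12938369-12938417, plus strand: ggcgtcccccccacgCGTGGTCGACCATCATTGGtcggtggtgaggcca
PDIA6, chr2:10812838-10812886, minus strand: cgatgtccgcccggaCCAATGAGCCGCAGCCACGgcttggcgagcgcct
HSPA5, chr9:125241376-125241424, minus strand: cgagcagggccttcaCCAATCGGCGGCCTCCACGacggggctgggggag
XBP1, chr22:28800588-28800636, minus strand: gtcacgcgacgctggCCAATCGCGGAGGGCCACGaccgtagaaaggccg

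These windows lie in the promoters, where the element ends 206 bases before the start in CALR, 67 in PDIA6, 47 in HSPA5 and 33 in XBP1. Those of CALR, HSPA5 and XBP1 lie upstream of the first exon or at its edge. That of PDIA6 belongs to a start inside the gene's GENCODE span (chr2:10783391-10837977). PDIA6 and XBP1 also have a promoter without the element. CALR, the chaperone calreticulin, had 1278 CPM at 24 h, 362 at 48 h, and 178, 170.3 and 171 at 72 h on toyocamycin and 1015 to 1214 CPM on DMSO, and fell by 2.24 ± 0.38 (log2, adjusted p = 0.0011). PDIA6, a disulfide isomerase chosen after its values were seen, had 709 CPM at 24 h, 228 at 48 h, and 59.2, 51.8 and 55.9 at 72 h and fell by 3.07 ± 0.37 (log2, adjusted p = 0.00025). PDIA4, a disulfide isomerase without the element in this window, had 1496 and 462 CPM at the middle times and 139, 147 and 156 CPM at 72 h and fell by 2.73 ± 0.38 (log2, adjusted p = 0.00046). HSPA5, the master chaperone BiP, had 1065 CPM at 24 h, 889.5 at 48 h, and 801, 747 and 733 at 72 h, which is a log2 difference of -0.36 ± 0.19 (adjusted p = 0.14). On DMSO HSPA5 rose, with 796 and 1113 CPM at the middle times and 1791, 1974 and 1919 CPM at 72 h, a log2 difference of 0.99 ± 0.20 (adjusted p = 0.067), and the difference between arms passed at -1.35 ± 0.27 (adjusted p = 0.0066). XBP1 had 47.04 and 45.96 CPM at the middle times and 40.2, 34.2 and 37.4 CPM at 72 h, and 61.04 and 61.9 CPM at the middle times and 92.1, 95.1 and 86.1 CPM at 72 h on DMSO, with a difference between arms of -0.89 ± 0.23 (adjusted p = 0.02). CANX, CRELD2 and HSP90B1, which also carry the element and were also chosen after their values were seen, fell, with log2 differences of -1.10 ± 0.33, -1.88 ± 0.48 and -1.51 ± 0.31. CANX had 931 and 327 CPM at the middle times and 314, 285 and 279 CPM at 72 h. CRELD2 had 127 and 25.3 CPM at the middle times and 22.8, 22.2 and 17.6 CPM at 72 h, so that most of the fall of both had taken place by 48 h. In all, 5 of the 7 genes with the element fell on toyocamycin, with a median of -1.51 (3 of 7 and -0.31 without the 24 h library), and 15 of the 26 other listed genes did (2 of these have no promoter in the table), with a median of -0.68. CALR, PDIA6, PDIA4, CANX, CRELD2 and HSP90B1 had log2 differences of -1.07, -2.05, -1.66, -0.17, -0.29 and -0.73 on toyocamycin without its 24 h library, and the calls of CANX and CRELD2 were lost. CANX had a log2 difference of -1.68 on toyocamycin without its 48 h library, and stayed called.

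Heat shock and cytosolic chaperone genes divided, with 12 of 34 rising and 7 falling (relative median 0.18). These counts were 8 up and 4 down without the 24 h library (relative median 0.14). HSP90AA1 fell by 1.38 ± 0.39 (log2, adjusted p = 0.015), with 2591 and 716 CPM at the middle times and 702, 597 and 610.1 CPM at 72 h, most of it between 24 and 48 h, and it overlaps WDR20 on the opposite strand. HSP90AB1 had a log2 difference of -0.11 ± 0.21 (adjusted p = 0.66). HSPA8, the constitutive HSC70, stayed far below DMSO, with 125 and 92.2 CPM at the middle times and 106, 107 and 113 CPM at 72 h against 1052 to 1949 CPM. Antioxidant genes driven by NRF2 fell in 11 of 28 cases and rose in 3 (relative median -0.21). The ferritin light chain FTL had 912 and 233 CPM at the middle times and 114, 115 and 117 CPM at 72 h, a log2 difference of -2.31 ± 0.40 (adjusted p = 0.0013), and the transketolase TKT 333 and 153 CPM at the middle times and 66.4, 63.4 and 66.4 CPM at 72 h, a log2 difference of -1.90 ± 0.30 (adjusted p = 0.00087). FTH1, the ferritin heavy chain, fell by 1.12 ± 0.33 (log2, adjusted p = 0.019), which turned above 0 under scaling on the mitochondrially encoded genes. HMOX1, given above, is on this list too and rose. Of 6 metallothioneins tested 3 fell and 0 rose (relative median -1.65). Leaving out the 24 h library gave 0 rises and 2 falls (relative median -0.28). MT2A had 52.2 CPM at 24 h, 10.97 at 48 h, and 7.31, 7.56 and 8.52 at 72 h, and 167 and 138 CPM at the middle times and 286, 340.5 and 322 CPM at 72 h on DMSO. MT1E and MT1G, whose reads may be shared with near copies, fell, with log2 differences of -1.53 ± 0.30 (adjusted p = 0.0022) and -2.79 ± 0.57 (adjusted p = 0.0031). HSP90AA1, FTL, TKT, FTH1, MT2A and MT1G had log2 differences of -0.18, -1.02, -1.24, -0.54, -0.50 and -1.29 on toyocamycin without its 24 h library, and the calls of HSP90AA1, FTH1 and MT2A were lost.

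Cytosolic ribosomal protein genes were high at the middle times and came part of the way back. At those times 83 of 85 were above DMSO (37.9% of all genes), and 38 of them returned by 72 h, 22 held, 5 grew and 18 were not resolved. Of all genes above DMSO then, 15.3% returned, 14.0% held and 13.8% grew. On toyocamycin itself 34 fell and 7 rose (relative median -0.37). Leaving out the 24 h library gave 4 rises and 18 falls (relative median -0.28). Their summed level was 265286 CPM at 24 h, 237997 at 48 h, and 206338, 192676 and 174635 at 72 h, against 55654 to 71914 CPM on DMSO, so all 3 libraries of 72 h remained above all DMSO libraries. RPS2, of the small subunit, had 14171 CPM at 24 h, 10140.3 at 48 h, and 4813, 4556 and 4217 at 72 h, against 3049.6 to 3964 CPM on DMSO, a log2 difference of -1.42 ± 0.19 (adjusted p = 0.00037). RPLP0, of the stalk, had 14343 and 12618 CPM at the middle times and 10791, 10623 and 9597 CPM at 72 h and fell by 0.38 ± 0.17 (log2, adjusted p = 0.085), a sign that reversed under scaling on the mitochondrially encoded genes. RPL13 had 9113 and 8833 CPM at the middle times and 8609.5, 8457 and 8025 CPM at 72 h and had a log2 difference of -0.10 ± 0.17 (adjusted p = 0.63). Many of these genes have processed copies elsewhere in the genome, so their counts may be split. RPLP0 had a log2 difference of -0.30 on toyocamycin without its 24 h library, and the call was lost. RPLP0 lost its call without any 1 of 4 libraries, with values from -0.41 to -0.30.

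Translation factors fell in 12 of 42 cases and rose in 16 (relative median 0.11). There were 7 rises and 8 falls without the 24 h library (relative median 0.08). EEF1A1, the factor that brings transfer RNA to the ribosome, had 40960.1 CPM at 24 h, 26467 at 48 h, and 16194, 14757 and 12224 at 72 h, against 7541 to 12334 CPM on DMSO, a log2 difference of -1.23 ± 0.22 (adjusted p = 0.0015). EEF2, the translocation factor, had 11553 and 6814 CPM at the middle times and 2869.7, 3404 and 3107 CPM at 72 h, a log2 difference of -1.55 ± 0.23 (adjusted p = 0.0006), and EEF1B2 had a log2 difference of -0.36 ± 0.18 (adjusted p = 0.12). Ribosome biogenesis genes rose in 27 of 66 cases and fell in 5 (relative median 0.38). Leaving out the 24 h library gave 15 rises and 2 falls (relative median 0.08). DDX21, a nucleolar helicase, had 239 and 401 CPM at the middle times and 818, 672 and 732 CPM at 72 h, and rose by 1.21 ± 0.31 (log2, adjusted p = 0.0097). Nucleolin (NCL) and nucleophosmin (NPM1) had log2 differences of 0.22 ± 0.20 (adjusted p = 0.37) and -0.20 ± 0.20 (adjusted p = 0.44). Mitochondrial ribosomal protein genes were even, with 21 of 80 up and 18 down (relative median 0.07). There were 13 rises and 19 falls without the 24 h library (relative median -0.04). MRPL10 rose by 0.65 ± 0.22 (log2, adjusted p = 0.034). MRPS34 fell by 0.56 ± 0.24 (log2, adjusted p = 0.075) and MRPS23 had a log2 difference of 0.14 ± 0.24 (adjusted p = 0.63), the sign of MRPS34 reversing under scaling on the mitochondrially encoded genes. MRPL10 had a log2 difference of 0.31 on toyocamycin without its 24 h library, and the call was lost. MRPL10 had a log2 difference of 1.05 on toyocamycin without its 48 h library, and stayed called. MRPS34 lost its call without any 1 of 3 libraries, with values from -0.57 to -0.53.

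**Figure D5:**
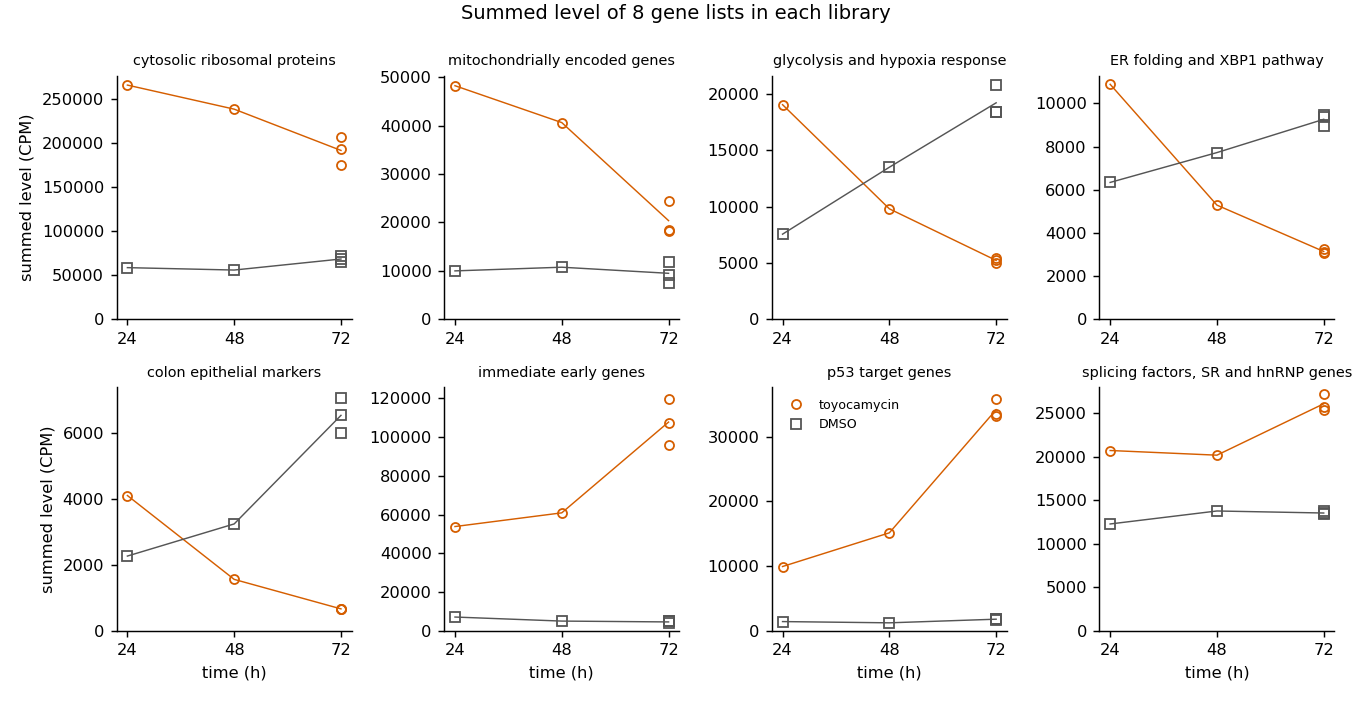
Summed level of 8 gene lists (vertical, CPM, from 0) in each library against time in h (horizontal), on toyocamycin (orange circles) and DMSO (grey squares); lines join the libraries of 24 and 48 h and the mean of the 3 of 72 h. Ribosomal protein and mitochondrially encoded genes come part of the way down to DMSO, glycolytic, ER folding and colon marker genes start above DMSO at 24 h and end below it, and immediate early and p53 target genes go on rising, on the TMM scale.

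Splicing factors showed 37 rises and 8 falls among 63 genes (relative median 0.54). Without the 24 h library 30 rose and 5 fell (relative median 0.45). HNRNPC rose by 0.60 ± 0.17 (log2, adjusted p = 0.016), with 1292 and 1336 CPM at the middle times and 2173, 1863 and 1957 CPM at 72 h. HNRNPA1 fell instead by 1.47 ± 0.25 (log2, adjusted p = 0.0011), with 2803 CPM at 24 h, 1438 at 48 h, and 841, 737 and 719 at 72 h, and HNRNPA0 had a log2 difference of 0.08 ± 0.18 (adjusted p = 0.73). Proteasome subunits rose in 17 of 36 cases and fell in 7 (relative median 0.34). These counts were 16 up and 4 down without the 24 h library (relative median 0.33). PSMD3 had 291 and 450.1 CPM at the middle times and 605, 753 and 675 CPM at 72 h, and rose by 0.87 ± 0.25 (log2, adjusted p = 0.016). PSMD2 had a log2 difference of 0.10 ± 0.31 (adjusted p = 0.8) and PSMA7 fell by 0.52 ± 0.23 (log2, adjusted p = 0.083), a sign that reversed under scaling on the mitochondrially encoded genes. HNRNPA1 and PSMA7 had log2 differences of -0.92 and -0.19 on toyocamycin without its 24 h library, and the call of PSMA7 was lost. PSMA7 had a log2 difference of -0.80 on toyocamycin without its 48 h library, and stayed called. PSMA7 lost its call without any 1 of 4 libraries, with values from -0.54 to -0.19.

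Of the 13 mitochondrially encoded genes 12 fell and 0 rose (relative median -1.21), and 7 of the 13 that were above DMSO at the middle times returned while 6 were not resolved. This count depends on the scaling by construction, since scaling on these genes sets their own median change to 0. MT-CO1, a subunit of cytochrome oxidase, had 11806 CPM at 24 h, 9080.2 at 48 h, and 3294, 4336 and 3303 at 72 h, against 2145 to 3564 CPM on DMSO. MT-ND4 and MT-ND5, of complex I, had 8488 and 6867 CPM at the middle times and 3009.8, 4056 and 3054 CPM at 72 h, and 4752 and 4017 CPM at the middle times and 2181, 2783 and 2096 CPM at 72 h. The log2 differences were -1.52 ± 0.24 (adjusted p = 0.00071), -1.19 ± 0.23 (adjusted p = 0.0022) and -0.90 ± 0.22 (adjusted p = 0.0075), the last of which turned above 0 under that scaling. Nuclear genes of oxidative phosphorylation fell in 33 of 77 cases and rose in 12 (relative median -0.47). Without the 24 h library 6 rose and 21 fell (relative median -0.25). ATP5F1A, the alpha subunit of ATP synthase, had 768 and 292 CPM at the middle times and 157, 158 and 157 CPM at 72 h, a log2 difference of -1.75 ± 0.31 (adjusted p = 0.0015). ATP5F1B, its beta subunit, fell by 0.79 ± 0.25 (log2, adjusted p = 0.024), reversed under that scaling, and COX4I1 had a log2 difference of -0.31 ± 0.18 (adjusted p = 0.18). ATP5F1A and ATP5F1B had log2 differences of -0.90 and -0.27 on toyocamycin without its 24 h library, and the call of ATP5F1B was lost. ATP5F1B had a log2 difference of -1.20 on toyocamycin without its 48 h library, and stayed called.

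Genes of glycolysis and the hypoxia response had medians of opposite sign in the arms. On toyocamycin 16 of 33 fell and 6 rose (relative median -0.59), while on DMSO the median was 0.88 and 4 rose, so that after subtraction 22 fell and 2 rose with a median of -1.83. PKM, pyruvate kinase, had 6252 CPM at 24 h, 2346 at 48 h, and 443, 451 and 462 at 72 h on toyocamycin, and 1508 CPM at 24 h, 2555 at 48 h, and 3403, 3728 and 3393 at 72 h on DMSO. It was above DMSO at 24 h, near it at 48 h and below it at 72 h, and fell by 3.25 ± 0.35 (log2, adjusted p = 0.0002). GAPDH, a glycolytic enzyme often used as a reference gene, had 3507 CPM at 24 h, 1857 at 48 h, and 584, 698 and 617 at 72 h, and fell by 2.08 ± 0.28 (log2, adjusted p = 0.00036). The glucose transporter gene SLC2A1 had 3459.8 and 2400.3 CPM at the middle times and 1174, 1266 and 1213 CPM at 72 h, and fell by 1.27 ± 0.25 (log2, adjusted p = 0.0027). In all of them the 72 h libraries were below every DMSO library of 72 h.

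Genes of cholesterol and fatty acid synthesis fell in 13 of 34 cases and rose in 5 (relative median -0.44). Leaving out the 24 h library gave 5 rises and 8 falls (relative median -0.35). FASN, fatty acid synthase, had 1228 CPM at 24 h, 409.7 at 48 h, and 99.3, 122 and 139 at 72 h, against 677 to 1324 CPM on DMSO, a log2 difference of -2.77 ± 0.41 (adjusted p = 0.00056). SCD, the fatty acid desaturase, had 326 and 198 CPM at the middle times and 105, 95.1 and 104 CPM at 72 h, and 196 and 159.5 CPM at the middle times and 393, 416 and 447 CPM at 72 h on DMSO. Lysosome and autophagy genes divided, with 17 of 46 down and 14 up (relative median -0.13), and 13 were in the returned class, which holds 9.88% of all genes. There were 7 rises and 17 falls without the 24 h library (relative median 0.03). CTSB, cathepsin B, had 3826 CPM at 24 h, 1941 at 48 h, and 555, 572 and 531 at 72 h, against 777 to 1231 CPM on DMSO, a log2 difference of -2.38 ± 0.27 (adjusted p = 0.00021). PSAP, the precursor of saposins, and LAMP1, a lysosomal membrane protein, fell, with log2 differences of -1.25 ± 0.17 (adjusted p = 0.00044) and -1.25 ± 0.16 (adjusted p = 0.00034), and both remained above DMSO at 72 h, with drug effects of 0.53 ± 0.16 and 0.77 ± 0.15. FASN had a log2 difference of -1.78 on toyocamycin without its 24 h library, and stayed called.

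Genes of DNA replication fell in 22 of 50 cases and rose in 8 (relative median -0.57), from a middle stage at which 40 were already below DMSO (32.4% of all genes). These counts were 7 up and 11 down without the 24 h library (relative median -0.25). POLD2, of DNA polymerase delta, had 266 CPM at 24 h, 86.5 at 48 h, and 45.3, 46.8 and 46.01 at 72 h, against 204 to 321 CPM on DMSO, a log2 difference of -1.94 ± 0.37 (adjusted p = 0.0021). MCM7, of the replicative helicase, rose by 0.69 ± 0.25 (adjusted p = 0.04) with 148 and 109.6 CPM at the middle times and 178, 201 and 244 CPM at 72 h, and PCNA, the sliding clamp, by 0.44 ± 0.19 (adjusted p = 0.084). Mitosis and kinetochore genes were low throughout, with 53 of 59 below DMSO at the middle times (32.4% of all genes), and afterwards 16 fell and 10 rose (relative median -0.24). MKI67, the proliferation marker, had 208 and 130.5 CPM at the middle times and 72.1, 62.9 and 86.97 CPM at 72 h against 277 to 350.0 CPM on DMSO, a log2 difference of -1.20 ± 0.23 (adjusted p = 0.002). TOP2A, topoisomerase II alpha, had 27.96 and 29.7 CPM at the middle times and 30.8, 26.1 and 33.8 CPM at 72 h against 326 to 426 CPM on DMSO, and NCAPD2, of condensin, 50.2 and 38.1 CPM at the middle times and 57.5, 57.2 and 77.2 CPM at 72 h against 219 to 264 CPM. Both kept all libraries below DMSO, and TOP2A was held. Among 26 kinases, cyclins and inhibitors of G1 and S phase, 8 rose and 6 fell (relative median -0.17). CCND1, cyclin D1, rose in both arms, by 0.96 ± 0.26 (adjusted p = 0.012) on toyocamycin and 1.39 ± 0.27 (adjusted p = 0.055) on DMSO, and E2F4 rose by 0.68 ± 0.30 (log2, adjusted p = 0.087) on toyocamycin. POLD2, PCNA, CCND1 and E2F4 had log2 differences of -0.92, 0.27, 0.57 and 0.20 on toyocamycin without its 24 h library, and the calls of PCNA and E2F4 were lost. MCM7, CCND1 and E2F4 had log2 differences of 0.47, 1.47 and 1.35 on toyocamycin without its 48 h library, and the call of MCM7 was lost. MCM7 lost its call without any 1 of 2 libraries, with values from 0.47 to 0.57, PCNA lost its call without any 1 of 9 libraries, with values from 0.27 to 0.49 and E2F4 lost its call without any 1 of 7 libraries, with values from 0.20 to 0.74.

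Replication-dependent histone genes, whose messages normally lack a polyA tail, rose in 20 of 39 cases and fell in 0 (relative median 1.36). Their summed level was 302 CPM at 24 h, 432 at 48 h, and 644, 618 and 588 at 72 h on toyocamycin and 62.96 to 123 CPM on DMSO. The best expressed members were not among those that rose: H2BC12, H1-2 and H2AC25 had log2 differences of 0.49 ± 0.23 (adjusted p = 0.1), -0.66 ± 0.40 (adjusted p = 0.19) and -0.29 ± 0.22 (adjusted p = 0.3). H2BC12 missed the threshold and stood at 82.3 and 108 CPM at the middle times and 149, 126 and 125 CPM at 72 h. These genes are near copies of one another, and reads may be shared between them.

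In a longer list of markers of colon epithelium, genes fell in 11 of 21 cases and rose in 4 (relative median -1.38), and 3 rose on DMSO. These counts were 4 up and 9 down without the 24 h library (relative median -0.34). KRT8, a keratin of simple epithelia, had 1651 CPM at 24 h, 633 at 48 h, and 250.5, 246 and 267 at 72 h on toyocamycin, and 833 CPM at 24 h, 1615 at 48 h, and 3848, 4243 and 3487 at 72 h on DMSO. Its partner KRT18 had 249 and 105 CPM at the middle times and 36.4, 30.3 and 32.9 CPM at 72 h, and 171 and 397 CPM at the middle times and 1101, 1161 and 1014 CPM at 72 h on DMSO. The arms moved apart in both, and the log2 differences on toyocamycin were -2.17 ± 0.36 (adjusted p = 0.001) and -2.42 ± 0.37 (adjusted p = 0.00072). The ends of these genes overlap on opposite strands. CDX2, the intestinal transcription factor, was above DMSO at the middle times and fell by 2.97 ± 0.41 (log2, adjusted p = 0.00041), with 1094 and 452 CPM at the middle times and 91.2, 109.5 and 95.7 CPM at 72 h, while on DMSO it had 255 and 102 CPM at the middle times and 73.3, 64.1 and 50.3 CPM at 72 h. Wnt targets fell in 8 of 22 cases and rose in 6 (relative median -0.45). BMP4, a growth factor, had a log2 difference of -0.33 ± 0.25 (adjusted p = 0.28), with 6483 and 3359.9 CPM at the middle times and 3975, 4040.4 and 3697 CPM at 72 h. Beside these values stand the sums of leukocyte and fibroblast markers on toyocamycin given above. The leukocyte sums at 72 h (25.5 to 29.0 CPM) overlapped those of the middle times (8.07 to 27.1 CPM). The fibroblast sums were 2.87 to 21.4 CPM at 72 h, highest in replicate 2, against at most 2.24 CPM at the middle times. Of 7 tested leukocyte markers of a longer list 1 rose, CD79A, with 7.01 and 22.9 CPM at the middle times and 47.1, 54.9 and 62.1 CPM at 72 h, and CD14 and CD74 had log2 differences of 0.43 ± 0.54 (adjusted p = 0.52) and 0.83 ± 0.71 (adjusted p = 0.35). Of 7 fibroblast markers of a longer list 3 rose. ACTA2, a smooth muscle actin, had 3.503 and 34.8 CPM at the middle times and 86.7, 85.97 and 78.6 CPM at 72 h, and overlaps FAS on the opposite strand, TAGLN had a log2 difference of 0.59 ± 0.43 (adjusted p = 0.28), and COL1A1, with 3.63 ± 1.36, lost its call without replicate 2 of 72 h (1.24). KRT8, CD79A and ACTA2 had log2 differences of -1.32, 1.24 and 1.26 on toyocamycin without its 24 h library, and stayed called. CD79A and ACTA2 had log2 differences of 2.95 and 4.56 on toyocamycin without its 48 h library, and stayed called.

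HOX cluster genes rose in 14 of 34 cases and fell in 3 (relative median 0.43). HOXB8 had 379 and 374 CPM at the middle times and 464, 487 and 492 CPM at 72 h on toyocamycin while on DMSO it fell, with 284 and 174 CPM at the middle times and 86.01, 81.8 and 65.9 CPM at 72 h, a log2 difference of -1.55 ± 0.22 (adjusted p = 0.012). HOXB9 and HOXA9 had log2 differences of -0.21 ± 0.17 (adjusted p = 0.33) and -0.39 ± 0.28 (adjusted p = 0.26) on toyocamycin. Neighbouring HOX genes overlap, and reads may be counted for more than 1 of them. Clustered protocadherins, cell adhesion genes that share exons within a cluster, rose in 9 of 29 cases and fell in 0 (relative median 0.82). Leaving out the 24 h library gave 2 rises and 0 falls (relative median 0.36). PCDHB13 had 14.4 and 20.9 CPM at the middle times and 26.8, 30.6 and 24.99 CPM at 72 h, a log2 difference of 0.64 ± 0.28 (adjusted p = 0.078), PCDHB14 rose by 0.90 ± 0.38 (log2, adjusted p = 0.072) and PCDHA4 had a log2 difference of -0.01 ± 0.30 (adjusted p = 0.97). Zinc finger genes, of which 236 of 365 were above DMSO at the middle times (37.9% of all genes), had 79 rises and 78 falls (relative median -0.01), or 21.6% and 21.4%. These counts were 46 up and 70 down without the 24 h library (relative median -0.15). ZNF703 had 1577 and 1109.9 CPM at the middle times and 447, 851 and 796 CPM at 72 h and fell by 0.95 ± 0.30 (log2, adjusted p = 0.025), reversed under scaling on the mitochondrially encoded genes, whereas ZNF263 and ZNF316 had log2 differences of 0.19 ± 0.23 (adjusted p = 0.51) and 0.60 ± 0.30 (adjusted p = 0.12).
 PCDHB13, PCDHB14 and ZNF703 had log2 differences of 0.39, 0.55 and -0.68 on toyocamycin without its 24 h library, and all these calls were lost. PCDHB13 lost its call without any 1 of 7 libraries, with values from 0.39 to 0.71 and PCDHB14 lost its call without any 1 of 7 libraries, with values from 0.55 to 0.97.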

How the data were processed

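The authors aligned paired-end polyA RNA reads with STAR 2.7.5a to GRCh38.100 and deposited raw counts per gene. The strand setting of the counting is not given in the sources used here. A deposited table of the authors' own comparisons, which holds fold changes and p-values, was not used, nor was 1 column of the count table whose name matched no sample label. Depth per library is given with the results, and CPM floors of 3 counts cover counting error only.

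Of 19141 genes counted, 19080 were matched to a symbol and 13853 passed filterByExpr. The 10 libraries formed 4 groups (arm by middle or last time) in 1 edgeR quasi-likelihood fit in its legacy form with TMM scaling, a prior count of 2 for log2 CPM and Benjamini-Hochberg adjusted p under 0.1. No 2 libraries of 72 h in the same arm agreed within counting noise, and other pairs were not checked. Scripts were tested on simulated counts, for the change of the drug effect. Of 50 seeded genes at each fold, 0 were called at a fold of 1.5, 3 at 2, 37 at 4 and 46 at 8. False calls made up 14.9% of the calls at adjusted p under 0.1. Changes of 2 times or less were thus mostly missed in the simulation. Only 200 of its 12931 genes were made to change, whereas 4924 were called in the data. Its shares of recovered and false calls therefore may not carry over to the data. R 4.3.3, edgeR 4.0.16, limma 3.58.1, DESeq2 1.42.0, Python 3.11.15, pandas 2.3.3, numpy 2.4.6 and matplotlib 3.10.9 were used. Gene positions and overlaps are those of GENCODE v44 on GRCh38, and promoter sequences are those of RefSeq on GRCh38.p14.

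The genes named are, for each class and direction, the 4 with the largest change of the drug effect among genes with an average log2 CPM of at least 4 whose toyocamycin libraries of 72 h all lay beyond both middle ones. For held genes they are the 2 with the largest effect in each direction, and for each list the 3 best expressed tested members, as well as CDK9, CCNT1, CCNT2, HEXIM1, MYC, MCL1, XBP1 and SMARCA4. PDIA6, CANX, CRELD2, HSP90B1 and the collagen genes were named after their values were seen. A few genes under the rule are not reported here. The comparison, lists and naming rule were chosen with earlier results of these data known. The alternatives were DESeq2 size factors and its Wald test, library size alone, scaling on the mitochondrially encoded genes, no filter or at least 10 counts in every library, the quasi-likelihood test of edgeR 4, adjusted p under 0.05, a minimum fold of 1.5, other choices of middle times and libraries, the replicate number as a block, and leaving out each library.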

Additional observations from a re-analysis of the deposited data

Results flagged for a closer look

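The change from the middle times to 72 h differed between toyocamycin and DMSO, by the test of that difference, for 1898 genes upward and 3026 downward. Among the genes named, 8 moved in opposite directions in the arms, with both changes past the threshold: they fell on toyocamycin and rose on DMSO. The difference of the log2 changes was -6.65 for VIPR1, -6.50 for TSPAN1, -6.25 for KRT14, -6.02 for KRT81, -5.19 for KRT5, -4.72 for KRT19, -4.36 for KRT18 and -2.61 for SCD. Of these, 5 are keratin genes. Only named genes were searched, and many were named for a large difference of this kind. The 8 genes and the 5 keratins among them are therefore no share of all genes. Under scaling on the mitochondrially encoded genes the fall of KRT81 on toyocamycin became 0.33. The falls of KRT5 (-0.76) and SCD (-0.19) on toyocamycin were then not called. Beyond leaving out each library and the single cases given above, groups of 3 or fewer libraries were not searched for libraries that stand apart. The causes of these differences were not tested.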

How the results depend on the processing

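With 24 and 48 h each given its own mean, 5653 genes rose on toyocamycin, 1127 rose and 616 fell on DMSO, the difference between arms was called upward for 3421, and 2602 returned, 3663 grew and 2464 held. With all 17 libraries and batch as a term, 754 rose and 435 fell on DMSO, 2965 differed upward, 2272 returned, 3286 grew and 2503 held. Against 24 h alone, 6003 rose on toyocamycin, 4098 differed upward, 3202 returned and 2531 were late, and against 48 h alone 2687 held and 885 were late. Chosen at 24 h and measured from 48 h, 2529 held and 1010 were late. At adjusted p under 0.05, 6 genes fell on DMSO, 1186 differed upward, 906 returned and 1160 grew. With a minimum fold of 1.5, 2196 rose on toyocamycin, 35 rose and 2 fell on DMSO, 1007 differed upward and 1988 downward, 641 returned and 908 grew (held was not computed). Of the results of named genes (change on toyocamycin or difference between arms), 46 then lost their call. DESeq2's Wald test gave 239 and 87 calls on DMSO, and library size alone gave 3348 genes higher and 6767 lower at the middle times. Falls on DMSO were 23 with library size alone, 17 without a filter and 21 with the test of edgeR 4.

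Under scaling on the mitochondrially encoded genes, 8416 rose and 975 fell on toyocamycin, 4669 differed upward and 829 downward, 1458 were higher and 9285 lower at the middle times, 3953 were higher at 72 h, 3155 returned, 1150 grew and 48 held. The sign of the change on toyocamycin then reversed for ATP5F1B (0.39), CANX (0.11), FTH1 (0.072), KRT81 (0.33), MLXIP (0.40), MRPS34 (0.58), MT-ND5 (0.23), NR4A2 (0.47), PSMA7 (0.66), RPLP0 (0.76), SMARCA4 (0.49) and ZNF703 (0.19), and that of the difference between arms for EEF1B2 (0.28) and XBP1 (0.083). Against 48 h alone that of CRELD2 reversed (0.078). Under scaling on the mitochondrially encoded genes, 39 further results of named genes lost their call with the sign kept, and 63 gained one. Falls on toyocamycin that lost their call include those of EEF1A1 (-0.062), MKI67 (-0.0060), RPS2 (-0.26), HNRNPA1 (-0.28), LAMP1 (-0.11), PSAP (-0.093) and SLC2A1 (-0.11).

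With the replicate number as a block, 1643 rose on toyocamycin, 9 rose and 0 fell on DMSO, 920 differed upward and 2008 downward, 749 returned, 985 grew and 716 held. Calls were then lost for 44 results of named genes. The correlations of same-numbered deviations at 72 h were -0.15, 0.07 and -0.14, against at most 0.23, 0.07 and 0.09 for other numbers. With 3 libraries per arm these values cannot decide whether the numbers pair the samples.

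Without 1 library at a time, 2528 to 5584 rose and 3018 to 4532 fell on toyocamycin, 25 to 468 rose and 2 to 265 fell on DMSO, 1097 to 3945 differed upward and 2419 to 4102 downward, and 4661 to 5919 were higher and 3813 to 5171 lower at the middle times. At 72 h 5767 to 6752 were higher and 5396 to 5929 lower, 958 to 2755 returned, 1086 to 2713 grew, 944 to 2324 held and 898 to 2546 were late. The toyocamycin libraries of 24 h (held 2324, late 898) and 48 h (returned 2755, late 2546) and the DMSO libraries of 24 h (grew 1086) and 48 h (grew 1262) moved these counts most. A single library per arm at 24 and at 48 h limits what can be resolved.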
